A study of Mus musculus with 8 samples.

Results

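The cells described here are called lymphoid-primed progenitors, a label that is checked below and holds in part. They carried transcripts of both Flt3 and Dntt and none of 5 genes of committed B cells and granulocytes. A cell was counted when it held at least 1 unique molecular identifier (UMI) of Flt3, at least 1 UMI of Dntt, and 0 UMIs of Cd79a, Ebf1, Vpreb1, Elane and Camp. They numbered 67 of 31952 cells that passed filters of at least 1000 genes, at least 2000 UMIs and at most 10% mitochondrial UMIs. The rule thus used the counts of 7 genes in the same cells, and the levels of those genes are given as a description only.

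The cells came from newborn and late fetal mice and had been sorted as Epcr+Lin-Sca-1+Kit+, a surface phenotype that enriches for hematopoietic stem cells. At postnatal day 2 (P2), 7 wild-type mice were merged, and their bone marrow, liver and spleen each gave 1 droplet RNA library, so a value of a P2 tissue is a value of that pool. An embryonic day 19 (E19) wild-type library came from a different batch, and its labels disagree: the title gives bone marrow and the tissue field fetal liver. It is called E19 here. The series also holds 2 tubes of P2 pups that carry Tppp3CreER and LSLTdTomato and were given tamoxifen at P0, in which each tube mixes bone marrow and spleen of 2 pups. These were not used to choose cells, and none of the comparisons below includes them. The labels give the sex of the mice as unknown.

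Flt3 encodes the receptor for FLT3 ligand, a cytokine that maintains early lymphoid and dendritic progenitors. Dntt encodes terminal deoxynucleotidyl transferase, the enzyme that adds untemplated nucleotides at the joints of rearranging antigen receptor genes. In the mouse, multipotent progenitors that gain Flt3 and begin to transcribe Dntt, Rag1 and Il7r while losing stem cell genes are known as lymphoid-primed, and their progeny include B, T, natural killer and dendritic cells. Il7r encodes the receptor chain for interleukin 7, on which early lymphoid growth depends, and Satb1 encodes a chromatin organiser needed for lymphoid specification. In mm10 coordinates Flt3 lies on the minus strand at chr5:147330741-147400489 and Dntt on the plus strand at chr19:41029275-41059525. Il7r lies on the minus strand at chr15:9505788-9530176 and Satb1 on the minus strand at chr17:51736187-51833290.

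P2 bone marrow, P2 liver, P2 spleen and E19 held 64757553 to 87254828 UMIs over 6867 to 11323 barcodes. The 67 cells carried 249846, 86043, 221273 and 59884 UMIs in these libraries, with medians of 9038.5, 12333, 7954 and 10834 UMIs per cell. Of all barcodes, 16 to 34 were shared between any pair of the 4 libraries, and 1 of the 67 cells had such a barcode, in spleen. Scrublet, which scores barcodes for resemblance to 2 merged cells, marked 2 of the bone marrow cells and 2 of the spleen cells. Intervals on shares (exact binomial) and on counts-per-million (CPM, the UMIs of a gene scaled to a common total, exact Poisson) are 95% intervals that cover counting error only. With 1 library per tissue and age, differences between libraries have no replicate check.

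The cells were rare in each of the 4 libraries. They made up 28 of 6550 bone marrow cells (0.427%, interval 0.284% to 0.617%), 7 of 5634 liver cells (0.124%, 0.05% to 0.256%), 26 of 9043 spleen cells (0.288%, 0.188% to 0.421%) and 6 of 10725 E19 cells (0.0559%). The intervals of bone marrow and spleen overlap. Among cells with Flt3 and none of the 5 excluded genes, 1.74% in bone marrow, 0.960% in liver, 1.60% in spleen and 0.119% at E19 had a Dntt UMI.

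**Figure D1:**
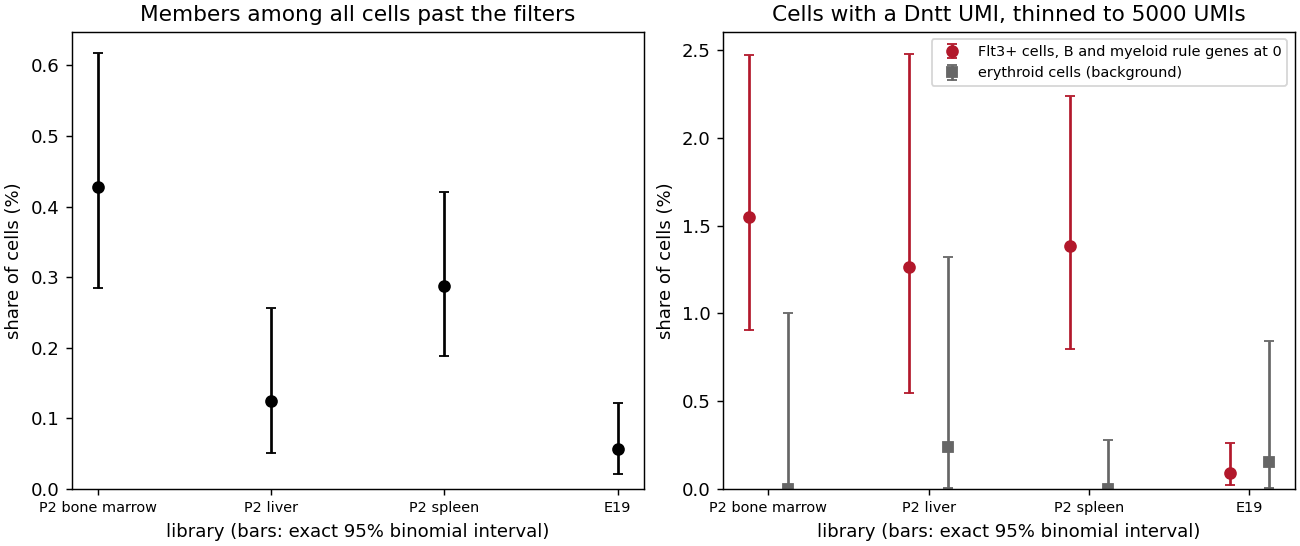
Left, share of cells that met the rule ("members") among all cells past the filters, in percent, by library; right, share of cells with a Dntt UMI after thinning each cell to 5000 UMIs, in Flt3 cells with the 5 excluded genes at 0 (circles) and in erythroid cells (squares). Bars are exact 95% binomial intervals, and on the right they are apart in spleen, overlap slightly in bone marrow and overlap in liver and at E19.

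Free RNA in droplets can give a UMI of a gene that a cell does not transcribe, so the Dntt share was set beside that of erythroid cells, which should lack Dntt. These were cells with at least 2 Klf1 UMIs and at least 1 Gata1 UMI, and both sets were thinned to 5000 UMIs per cell. The excluded genes were counted after thinning, so a cell that lost its UMIs of B cell genes could enter. In bone marrow, 17 of 1096 Flt3 cells (1.55%, 0.906% to 2.47%) had Dntt against 0 of 366 erythroid cells, which allows up to 1.00%. In spleen the counts were 16 of 1154 (1.39%, 0.795% to 2.24%) against 0 of 1333. The intervals were apart in spleen and overlapped slightly in bone marrow. The liver counts were 8 of 632 (1.27%, 0.548% to 2.48%) and 1 of 420 (0.238%, up to 1.32%), with overlapping intervals. Unthinned, 7 liver cells met the rule, and the part of cells with B cell genes in the thinned shares was not tested. At E19, 3 of 3331 Flt3 cells (0.0901%) and 1 of 660 erythroid cells (0.152%) had Dntt. The E19 share was at background, so the 6 E19 cells cannot be told apart from Flt3 cells that caught free Dntt RNA, and results are given with and without that library.

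In the 3 P2 tissue libraries the rule takes in a minority of the cells that hold both genes. Most P2 cells with Flt3 and Dntt also had a UMI of Cd79a, Ebf1 or Vpreb1, which encode a B cell receptor signalling chain, a B lineage transcription factor and a surrogate light chain: 205 of 241 in bone marrow (85.1%), 119 of 129 in liver (92.2%) and 105 of 132 in spleen (79.5%). A single Dntt UMI was enough for most of the cells chosen, namely 22 of 28 in bone marrow, 5 of 7 in liver, 18 of 26 in spleen and 5 of 6 at E19. Just outside the rule, 17, 5, 11 and 1 cells were left out for 1 UMI of an excluded gene. The highest Dntt count in a chosen cell was 5 in bone marrow, 2 in liver, 10 in spleen and 2 at E19, and that of Flt3 was 8, 7, 11 and 4.

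The label of lymphoid priming was checked on Il7r and Satb1, which the rule did not use. After thinning to 5000 UMIs, Satb1 was seen in 14 of 21 bone marrow cells (66.7%), 4 of 7 liver cells, 15 of 23 spleen cells (65.2%) and 3 of 5 E19 cells. The matching shares of Flt3 cells without Dntt were 47.3%, 23.2%, 41.7% and 51.7%, and those of erythroid cells in the P2 libraries 3.65%, 1.34% and 2.01%. Il7r was seen in 4 of 21 bone marrow cells (19.0%), 1 of 7 liver cells, 3 of 23 spleen cells (13%) and 0 of 5 E19 cells, against 4.32%, 4.89%, 3.35% and 0.442% of Flt3 cells without Dntt. Unthinned, Satb1 was present in 22 of 28, 5 of 7, 21 of 26 and 5 of 6 cells, so Satb1 marked most of the set and Il7r a minority of it. Il7r had 12 UMIs in bone marrow, 5 in liver, 20 in spleen and 0 at E19, and no cell held more than 6. The thinned shares of both genes had intervals that overlapped those of Flt3 cells without Dntt in each of the 4 libraries. For Satb1 in spleen they were 42.7% to 83.6% against 39.1% to 44.4%. For Il7r in spleen they were 2.78% to 33.6% against 2.46% to 4.44%. Overlap of intervals is not a test, and the cells are few. These shares alone thus neither set the cells apart from other Flt3 cells nor show that they are alike. The P2 cells carry the markers of the label in part. The E19 cells carry Satb1, and Il7r was not seen in them, although 0 of 5 thinned cells allows up to 52.2%.

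Procr, the gene for the Epcr protein used in the sort, was seen in 1 of the 61 P2 cells and in 2 of the 6 E19 cells. Rag1, a recombinase of antigen receptor genes, was also seen in 1 of 61. Igll1, Cd3e and Pf4, which mark B cell precursors, T cells and megakaryocytes, were at 0 in all 61. Other genes of the B and T cell lists were present. Cd79b, a B cell receptor chain gene, was seen in some cells of each P2 tissue, at up to 3 UMIs per cell. Trbc2, a T cell receptor constant region gene, was seen in 7 of 28 bone marrow, 3 of 7 liver and 10 of 26 spleen cells. The summed level of 15 further B cell genes was 396 CPM in bone marrow, 314 in liver, 316 in spleen and 317 at E19, close to the 334, 394, 348 and 377 CPM of Flt3 cells without Dntt.

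**Figure D2:**
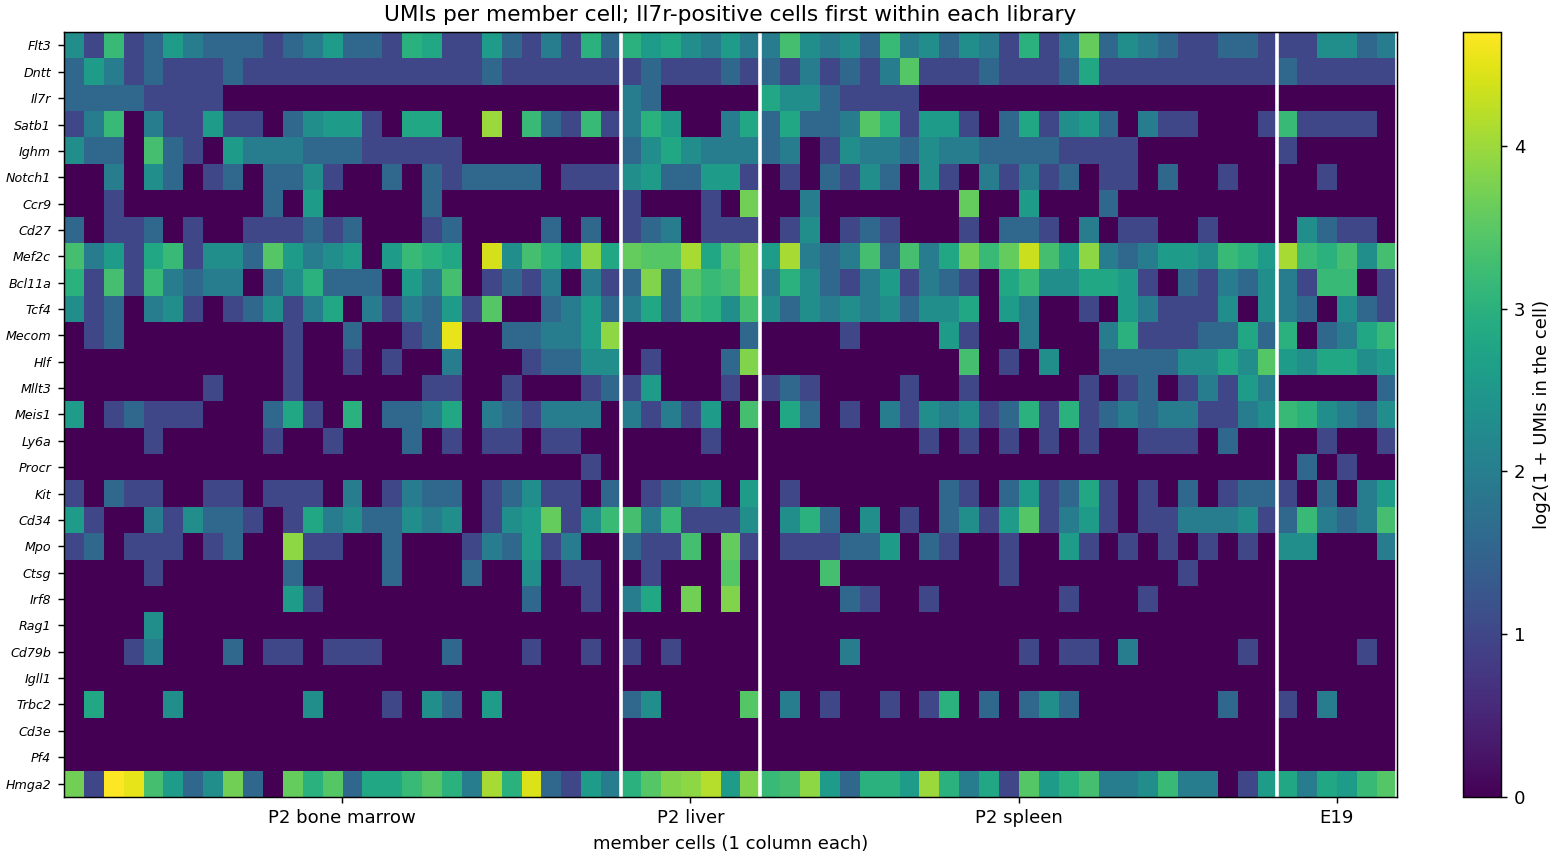
Each column is 1 of the 67 cells ("members"), grouped by library with cells that hold Il7r first, each row is a gene, and the colour is log2 of 1 plus the UMI count. Il7r is seen in 18 P2 cells and in 0 of the 6 E19 cells, in which Hlf is seen throughout.

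Within the P2 set, lymphoid and stem cell transcripts were unevenly spread over cells. Mecom and Hlf encode transcription factors of long-term stem cells, and 32 of the 61 P2 cells had a UMI of either. Of the 18 cells with Il7r (8 in bone marrow, 2 in liver, 8 in spleen), 4 had Mecom or Hlf, against 28 of the 43 cells without Il7r. Ly6a, the gene for Sca-1, was present in 1 of 18 against 18 of 43, and Kit, the stem cell factor receptor, in 7 of 18 against 32 of 43. Ighm, whose locus is transcribed before and during heavy chain rearrangement, was present in 15 of 18 against 28 of 43, and Satb1 in 17 of 18 against 31 of 43. Notch1, a receptor that drives T lineage entry, was present in 11 of 18 against 31 of 43. In bone marrow the cells with Il7r were the shallower ones, with a median of 6620.5 UMIs against 9627.5, and the part of depth in these shares was not tested. The cells were split by counts in themselves, so these shares are a description.

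A split by Dntt count, which the rule used, is given as a description over cells pooled from 3 libraries, and the part of depth in it was not tested. Il7r was present in 8 of the 45 P2 cells with exactly 1 Dntt UMI and in 10 of the 16 with at least 2. Mecom or Hlf were present in 27 of 45 and 5 of 16 of these cells, and Satb1 in 33 of 45 and 15 of 16. Mpo, the granule peroxidase of granulocyte and monocyte progenitors, was seen in 17 of the 32 cells with Mecom or Hlf and in 21 of the 29 without, and Ighm in 19 of 32 and 24 of 29. Mpo was also seen in 30.3% of erythroid cells in bone marrow, 30.2% in liver and 20.2% in spleen, with no thinning, so free RNA can have part in its counts. All 6 E19 cells had Hlf, at 4 to 6 UMIs each, and 5 of them had Mecom. A single spleen cell carried every UMI of the mast cell and basophil proteases Mcpt8 (40 UMIs) and Prss34 (61 UMIs) found in the set. It lifted the summed mast cell and basophil list to 511 CPM in spleen, while bone marrow and liver cells were at 0.

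To ask what accompanies Dntt, the 67 cells were compared with Flt3 cells that had no Dntt and none of the 5 excluded genes, matched 1 to 1 on total UMIs within each library. UMIs were summed per library and cell set, and 8 sums were tested with the library as a block. Of 3016 genes tested, 6 were higher in the Dntt cells (0.199%) and 0 were lower (0.0%) at an adjusted p under 0.05 in edgeR's quasi-likelihood test. At an unadjusted p under 0.05 there were 184 genes, 98 of them higher, and DESeq2 called 0. The median log2 difference over all genes tested was -0.01. Leaving out bone marrow, liver, spleen or E19 gave 3 calls of 1636 genes tested, 8 of 4220, 0 of 1635 and 29 of 4289. Requiring at least 2 Dntt UMIs gave 0 of 632. That last fit had 6, 2, 8 and 1 Dntt cells in bone marrow, liver, spleen and E19, so its 0 calls are on few genes and cells. The p-values measure how the difference between the cell sets varies over these 4 libraries, of which the 3 at P2 come from the same mice.

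The 6 higher genes were Fgf13, Il12a, Ighm, Fam155a, H2afy and 2610307P16Rik. Fgf13, which encodes an intracellular fibroblast growth factor homologue, had 31, 17, 35 and 4 UMIs in the Dntt cells of bone marrow, liver, spleen and E19, against 7, 1, 4 and 0 in the matched cells. It rose by 2.81 ± 0.40 on the log2 scale (SE, adjusted p = 0.0101, edgeR). It was higher in every library, although at E19 all 4 UMIs lay in 1 cell. Against Dntt cells with a B cell gene, the second comparison below, Fgf13 was among the genes called lower. Il12a, which encodes the p35 chain of interleukin 12, had 42, 8, 37 and 6 UMIs against 12, 0, 8 and 0 and rose by 2.24 ± 0.39 (adjusted p = 0.0324, edgeR). Its UMIs were spread over 16 of 28, 6 of 7, 16 of 26 and 2 of 6 cells.

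Ighm had 45, 25, 40 and 1 UMIs in the Dntt cells and 9, 9, 9 and 1 in the matched cells, a rise of 1.91 ± 0.30 (adjusted p = 0.0166, edgeR). The difference was positive in each P2 library, while at E19 there was 1 UMI in each set. Ighm was seen in all 7 liver cells and in 18 of 28 bone marrow and 18 of 26 spleen cells. After thinning it was in 38.1%, 85.7% and 47.8% of the P2 cells and in 1.66%, 4.35% and 2.18% of erythroid cells. The part of free RNA in its counts was not tested. H2afy, which encodes the histone variant macroH2A1, was the most abundant of the 6, with 736, 210, 483 and 108 UMIs against 554, 92, 316 and 67, and rose by 0.67 ± 0.12 (adjusted p = 0.0324, edgeR).

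Fam155a, which encodes a subunit of a sodium leak channel, rose by 1.58 ± 0.30 against the matched cells, with an adjusted p of 0.0468 in edgeR. Its UMIs were 86, 3, 138 and 5 against 24, 0, 60 and 0. Against all Flt3 cells without Dntt its level was higher in bone marrow (344 against 203 CPM) and spleen (624 against 200 CPM) but lower in liver (34.9 against 121 CPM) and at E19 (83.5 against 166 CPM). Its call in liver and E19 rests on few matched cells.

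**Figure D3:**
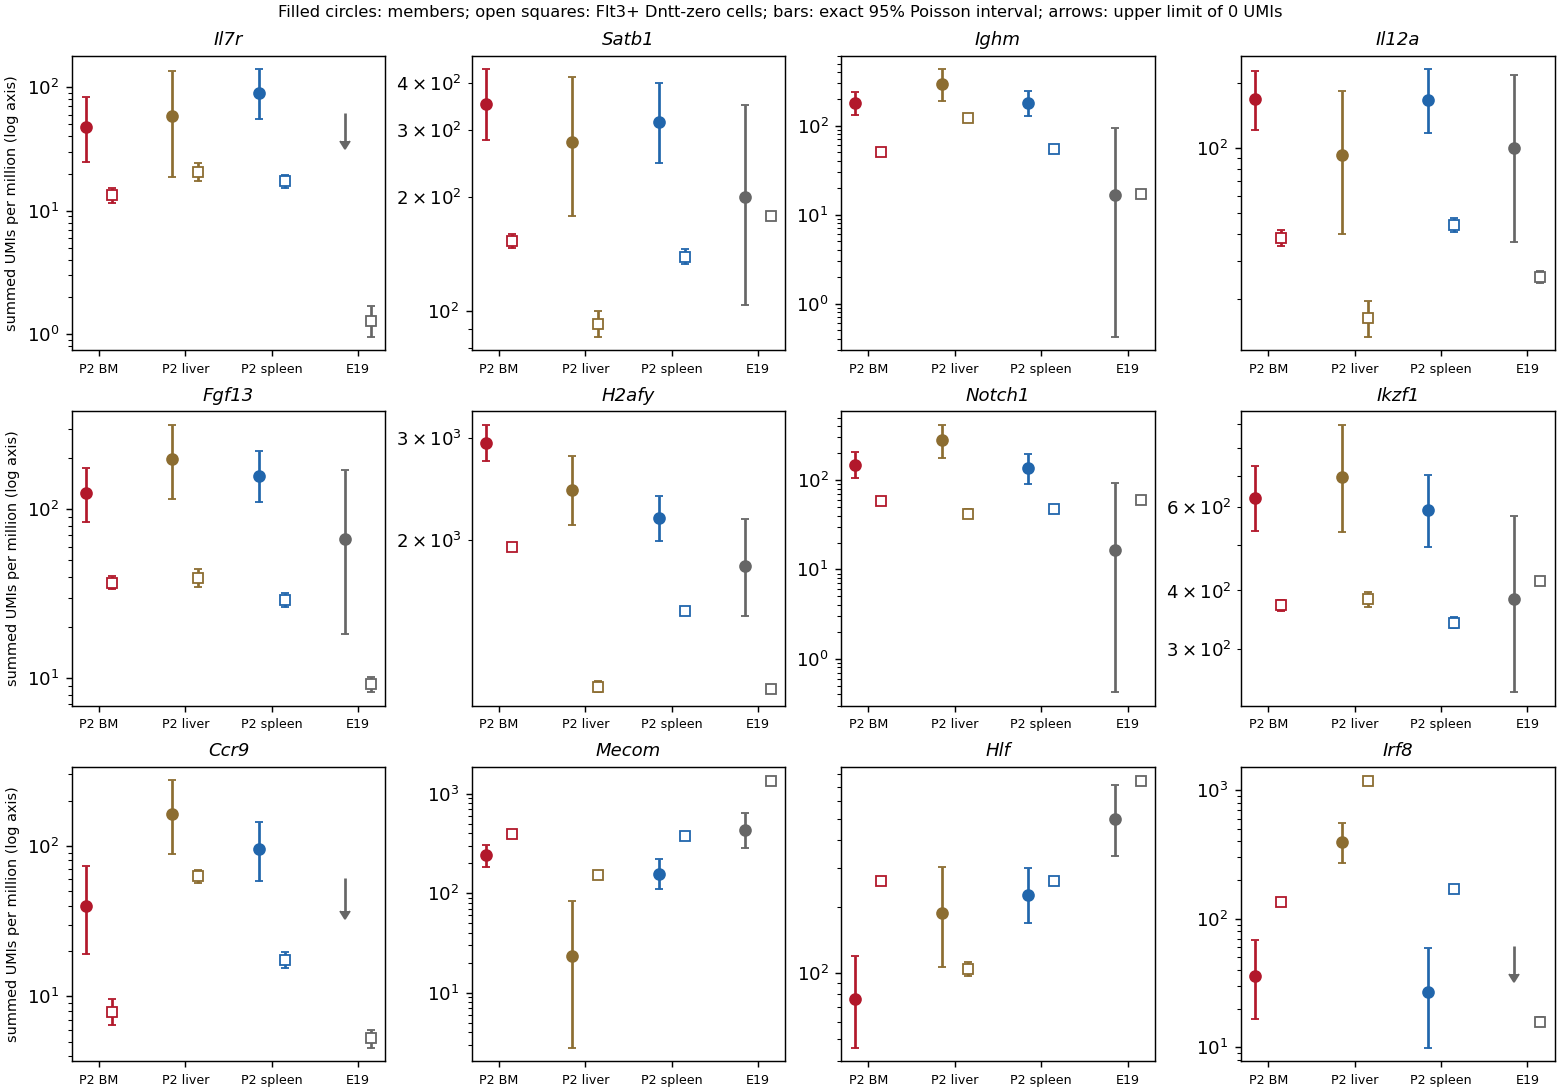
Level of 12 genes in CPM (log axis) in the cells with Flt3 and Dntt ("members", filled circles) and in all Flt3 cells without Dntt (open squares), by library, with exact 95% Poisson intervals and arrows for the upper limit of 0 UMIs. Il12a and Fgf13 lie higher with Dntt in all 4 libraries, while Notch1 lies higher in the 3 P2 libraries and lower at E19.

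Without E19, whose Dntt share was at background, the same comparison called 19 genes higher (0.443%) and 10 lower (0.233%) of 4289, and these included all 6 genes called with it. Il7r rose by 3.10 ± 0.63 (adjusted p = 0.0188, edgeR). Its levels were 48.0 CPM in bone marrow, 58.1 in liver and 90.4 in spleen, against 13.3, 20.5 and 17.4 CPM in all Flt3 cells without Dntt. Notch1 rose by 2.01 ± 0.33 against the matched cells (adjusted p = 0.00288, edgeR). Its levels were 148, 279 and 136 CPM, against 58.4, 42.2 and 47.3 CPM in all Flt3 cells without Dntt, not only the matched ones. At E19 Notch1 was lower with Dntt, at 16.7 against 59.5 CPM, with 1 UMI. Ikzf1, which encodes the lymphoid zinc finger factor Ikaros, rose by 0.94 ± 0.21 (adjusted p = 0.0253, edgeR), and Hmga2, a chromatin protein of fetal and neonatal stem cells, by 1.01 ± 0.22 (adjusted p = 0.0253, edgeR).

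Ccr9, the chemokine receptor that guides progenitors to the thymus, also passed without E19, at 2.25 ± 0.53 (adjusted p = 0.0477, edgeR). Few cells carried it: 4 in bone marrow, 3 in liver and 4 in spleen, with 12 of the 14 liver UMIs and 11 of the 21 spleen UMIs in single cells. Satb1 did not pass with 1 matched cell, at 1.07 ± 0.30 with E19 (adjusted p = 0.331, edgeR) and 1.21 without it (adjusted p = 0.0663, edgeR). It was higher in every library, at 88, 24, 70 and 12 UMIs against 56, 2, 28 and 11. With 10 matched cells per Dntt cell, an alternative chosen after seeing the data, Satb1 rose by 1.04 ± 0.19 (adjusted p = 0.00164, edgeR).

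That larger comparison tested 6340 genes and called 26 higher (0.41%) and 33 lower (0.521%), with 5 of the 6 genes called above among the higher ones. It added Lck and Trbc2, which encode a T cell kinase and a T cell receptor constant region, at 2.21 and 2.00 on the log2 scale. Id2, an inhibitor of E proteins that is high in innate lymphoid and dendritic cells, fell by 2.57 (adjusted p = 0.00388, edgeR). Unlike Lck and Trbc2, Id2 did not meet the naming rule of the same direction in every library and at least 20 CPM. In liver Id2 was at 716 CPM in all Flt3 cells without Dntt. Cnn3, which encodes an actin-binding calponin, rose by 1.20 and Sox4, a factor needed for early B and T development, by 0.82. Without E19 the same 10 to 1 comparison called 50 genes higher (0.684%) and 61 lower (0.835%) of 7307, and Il7r rose by 1.96 (adjusted p = 0.00198, edgeR). Of the 17 T, natural killer and innate lymphoid genes, Cd3e, Il2rb and Thy1 were at 0 in the cells of all 4 libraries. The summed level of that list was 276, 291, 203 and 317 CPM against 148, 813, 183 and 184 CPM, and its part in the results was not tested.

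Of the list of 35 lymphoid priming genes, 16 were tested with E19, of which 2 (Il12a and Ighm) rose, 0 fell and 14 had a positive difference, with a median of 0.68 against -0.01 over all 3016 genes. Without E19, 6 of 21 rose, 0 fell and the median was 0.89. With 10 matched cells, 9 of 23 rose and 0 fell. The summed level of the list was 5091 CPM in bone marrow, 6787 in liver, 4931 in spleen and 4525 at E19, against 3477, 2756, 3280 and 4270 CPM in all Flt3 cells without Dntt. These sums are over all comparison cells, without matching, and whether the difference at E19 departs from that at P2 has no call in the test given further on. The list was chosen with earlier results of these data known and is not independent evidence of its direction.

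Genes of stem cell identity leaned the other way, with no call at 1 matched cell per Dntt cell. Of 11 tested, 0 rose, 0 fell and 2 had a positive difference, with a median of -0.36. Mecom had 60, 2, 35 and 26 UMIs against 68, 33, 84 and 39, a difference of -1.0 ± 0.33 that did not pass (adjusted p = 0.431, edgeR). In bone marrow, 22 of its 60 UMIs lay in 1 cell. With 10 matched cells Mecom fell by 1.24 (adjusted p = 0.000201, edgeR) and Mllt3, which encodes a factor that maintains stem cells, fell by 1.41. Hlf differed by -0.69 (adjusted p = 0.691, edgeR), and in liver 13 of its 16 UMIs lay in 1 cell. The summed level of the 21 stem cell genes was 2698, 2115, 2662 and 4859 CPM against 3958, 1901, 3424 and 6272 CPM, lower with Dntt except in liver. Without E19, Ifitm1, an interferon-induced membrane protein gene high in stem cells, fell by 0.86 ± 0.19 (adjusted p = 0.0288, edgeR).

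Of 2 dendritic and 6 myeloid genes tested without E19, 1 each fell with Dntt, namely Irf8 and Ctsg. With E19 included 0 of 1 and 0 of 5 passed edgeR's test. Without E19, Irf8, the transcription factor of dendritic and monocyte lineages, fell by 2.02 ± 0.32 (adjusted p = 0.00214, edgeR). Cst3, the cystatin C gene that is high in dendritic cells, is on neither list and fell by 2.93 in the same fit (adjusted p = 0.00207, edgeR). In all Flt3 cells without Dntt, Cst3 was at 761 CPM in bone marrow, 10730 in liver and 1325 in spleen, against 292, 267 and 298 CPM with Dntt. Cells with Dntt thus had nearly the same Cst3 in the 3 tissues, while the comparison cells did not. The 15 dendritic markers summed to 783, 13826 and 1658 CPM in the comparison cells and to 232, 616 and 154 CPM in the Dntt cells, in which Clec9a, Xcr1, Batf3, Itgax and H2-Eb1 were at 0 in all 3 tissues. The comparison cells of liver therefore held dendritic transcripts in large amount, and the part of such cells in the calls of Irf8 and Cst3 was not tested.

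The summed myeloid list was 1237, 1569, 768 and 1152 CPM in the Dntt cells of bone marrow, liver, spleen and E19, against 1869, 1861, 1410 and 915 CPM. Among myeloid genes, Ctsg, the cathepsin G gene, fell by 1.31 without E19 (adjusted p = 0.0442, edgeR), at 52.0 and 49.7 CPM in bone marrow and spleen against 154 and 108. In liver its level over all comparison cells was the lower one, at 72.2 against 128 CPM with Dntt. Mpo differed by -0.03 in all 4 libraries together (42, 25, 26 and 11 UMIs against 70, 12, 31 and 4) and was higher in 2 of them. The globin gene Hbb-bt fell by 1.35 without E19 (adjusted p = 0.0288, edgeR), and the erythroid list summed to 332, 372 and 705 CPM against 1198, 544 and 1276 CPM.

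**Figure D4:**
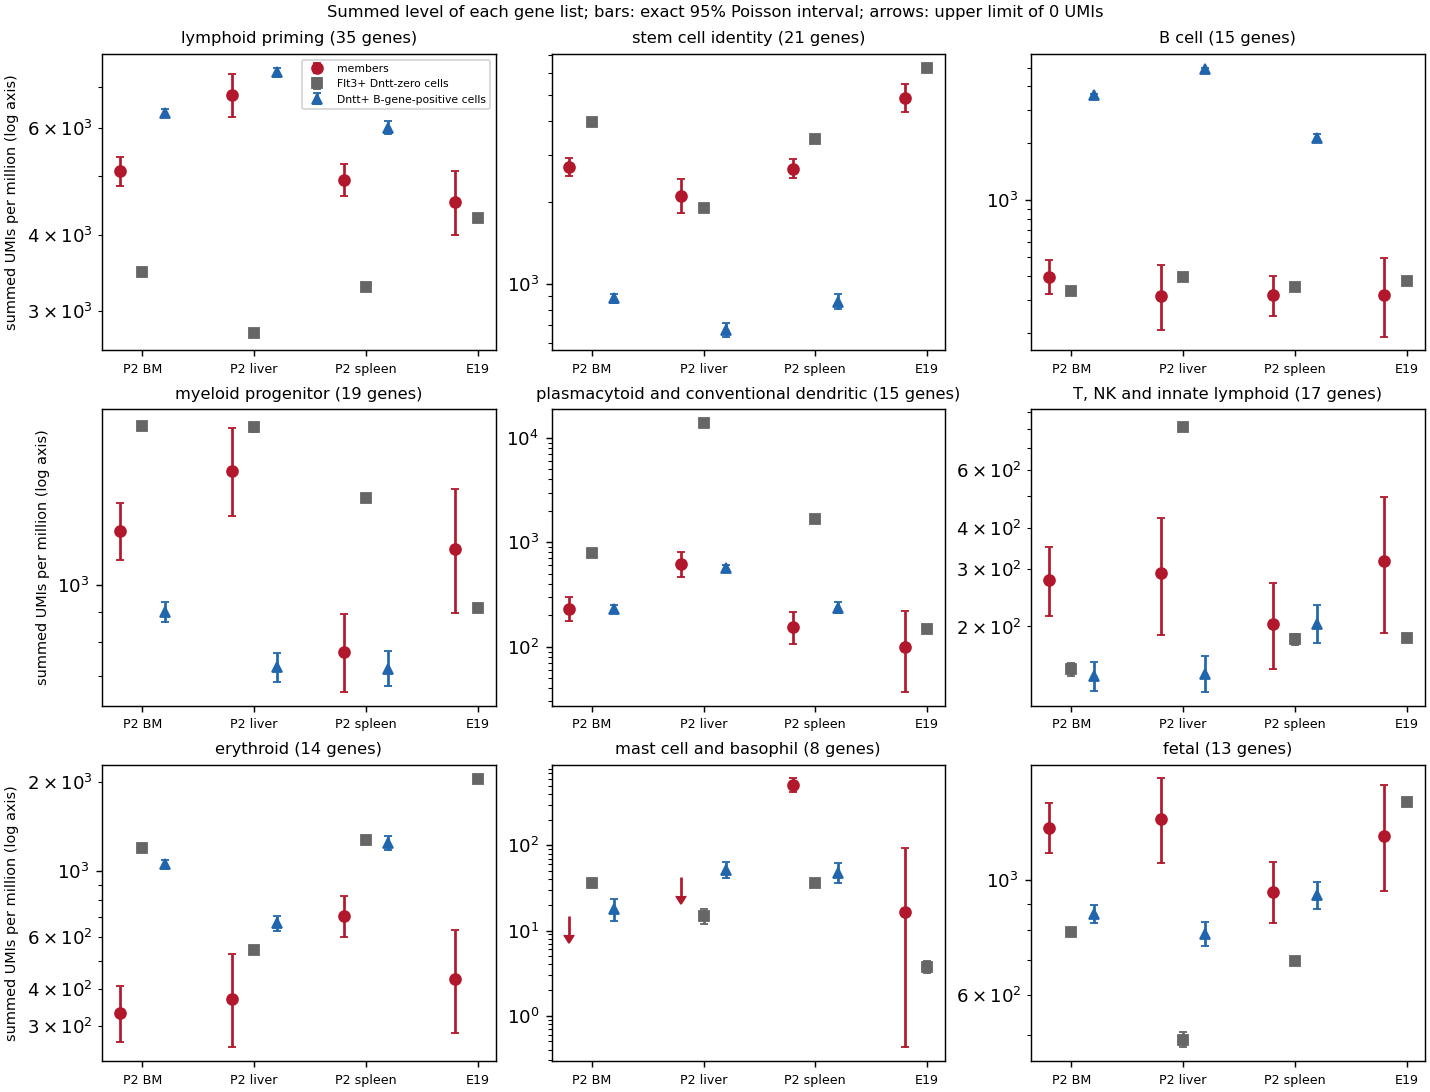
Summed level of 9 gene lists in CPM (log axis), by library, in cells with Flt3 and Dntt ("members", circles), Flt3 cells without Dntt (squares) and Dntt cells with a B cell gene (triangles, not drawn at E19), with exact 95% Poisson intervals. Lymphoid priming genes are higher and dendritic genes lower with Dntt in the 3 P2 libraries, and among the sets drawn the B cell list is highest in the cells with a B cell gene.

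Other lists held no gene that passed with 1 matched cell and all 4 libraries, where DESeq2 called 0 genes of any kind. With E19 included, 0 of 22 S phase genes (12 positive, median 0.05), 0 of 23 G2/M genes (10 positive, median -0.02), 0 of 6 genes of interleukin 7 signalling and 0 of 6 homing genes passed edgeR's test. Cells with and without Dntt thus did not differ detectably in cycle genes at this depth. Of 4 tested V(D)J recombination genes 0 passed, and of 2 tested fetal genes 0 passed, although the summed fetal list was 1265, 1313, 949 and 1219 CPM against 795, 490, 697 and 1420 CPM.

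Whether the Dntt difference at E19 departed from that at P2 was tested with an interaction term, in which the lone E19 pair is assumed to vary like the P2 pairs. edgeR called 0 of 3016 genes (0.0% higher and 0.0% lower), with 175 at an unadjusted p under 0.05 and 2 called when the filter on low counts was left out. With 6 cells at E19, a difference between ages in single genes was not detectable at this depth.

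The second comparison set the cells beside cells with Dntt and transcripts of the B lineage. These had Dntt, at least 1 UMI of Cd79a, Ebf1 or Vpreb1, no Elane or Camp, and any count of Flt3. They numbered 363 in bone marrow, 249 in liver, 145 in spleen and 1 at E19. Flt3 was not required in them, so the sets can differ by Flt3 as well as by B cell genes. Bone marrow and spleen had at least 20 cells in both sets and gave 4 depth-matched sums. Both libraries come from the same pool of mice, and 4 sums leave few residual degrees of freedom for the p-values. Of 4459 genes tested with edgeR, 50 were higher (1.12%) and 97 lower (2.18%) in the cells without B cell genes, with 571 at an unadjusted p under 0.05 and a median of -0.00. With liver added, 64 were higher (1.51%) and 114 lower (2.69%) of 4233.

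**Figure D5:**
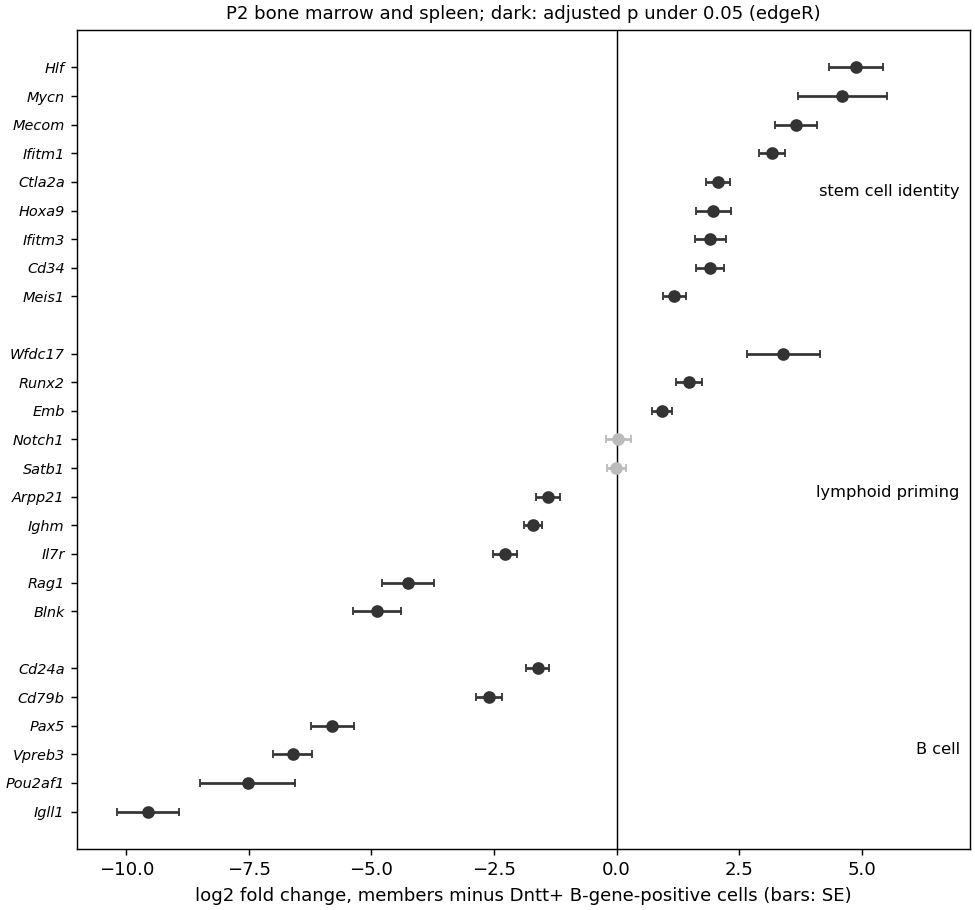
Log2 fold change (points, bars are SE) of stem cell, lymphoid priming and B cell genes between Flt3 and Dntt cells ("members") and Dntt cells with a B cell gene, in P2 bone marrow and spleen; dark points have an adjusted p under 0.05 in edgeR. Hlf lies at 4.88, Mecom at 3.66, Il7r at -2.28 and Satb1 at -0.01, and the points of Igll1 and Pou2af1, which were at 0 in the members, depend on the prior count and are no bounds.

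Stem cell genes were the clearest positive group. Of 12 on the list, 9 rose and all 12 were positive, with a median of 1.94. Hlf had 19 and 50 UMIs in bone marrow and spleen against 1 and 1, a rise of 4.88 ± 0.54 (adjusted p = 0.000606, edgeR). Mecom had 60 and 35 against 2 and 5 and rose by 3.66 ± 0.43 (adjusted p = 0.000739, edgeR). Ifitm1 had 134 and 83 against 12 and 11 and rose by 3.17 ± 0.26 (adjusted p = 8.45e-05, edgeR). In both tissues each of these genes had more UMIs in the cells without B cell genes.

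Mycn, a transcription factor of the Myc family, rose by 4.60 on few UMIs (16 and 15 against 1 and 0). Ikzf2, the Helios gene, rose by 3.12, Ctla2a by 2.07, Hoxa9, a homeobox factor of progenitors, by 1.97, Ifitm3 by 1.91, Cd34, a sialomucin of progenitors, by 1.90, and Meis1, a partner of Hox proteins, by 1.18. Lmo2, an adaptor of stem cell transcription complexes, rose by 1.65.

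Among lymphoid genes, Il7r, Ighm and Rag1 were lower than in the cells with B cell genes, and Satb1 and Notch1 did not pass the test. Il7r had 12 and 20 UMIs against 61 and 89 and fell by 2.28 ± 0.25 (adjusted p = 0.000606, edgeR). Ighm had 45 and 40 against 131 and 138 and fell by 1.71 ± 0.19 (adjusted p = 0.000606, edgeR). Rag1 had 4 and 0 against 47 and 31 and fell by 4.26. Satb1 had 88 and 70 UMIs against 75 and 78, a difference of -0.01 ± 0.19, and Notch1 had 37 and 30 against 30 and 33, a difference of 0.04 ± 0.25. The levels of Il7r in bone marrow, from Flt3 cells without Dntt to Dntt cells with a B cell gene, were 13.3, 48.0 and 249 CPM, and those of Satb1 153, 352 and 281 CPM.

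Of 26 lymphoid priming genes tested, 3 rose and 7 fell. Among those that fell were Foxo1, the factor that drives Il7r and Rag transcription (-1.82), Arpp21 (-1.40) and Blnk, a B cell receptor linker (-4.89). Of 9 B cell genes 8 fell, a direction that follows the rule's use of Cd79a, Ebf1 and Vpreb1. Pax5, the factor that commits cells to the B lineage, had 1 and 1 UMIs against 72 and 49 (-5.80), and Vpreb3 had 3 and 0 against 205 and 100 (-6.61). Igll1, a surrogate light chain gene, was at 0 in all bone marrow and spleen cells of the set and at least 62.6-fold lower than in the matched cells, with a floor of 3 counts over the group. Gfra2 was at least 15.5-fold, Pou2af1 at least 15.1-fold, Vpreb2 at least 13.1-fold and Cplx2 at least 12.1-fold lower by the same floor. Of 7 recombination genes 3 fell, namely Rag1, Hmgb1 and Hmgb2, and of 27 G2/M genes only Hmgb2 passed.

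Between libraries, levels within the set were compared at 2-fold in genes with at least 30 UMIs in the higher library, with no test. E19 had 13 of 1131 genes higher (1.15%) and 227 lower (20.1%) than bone marrow. Against liver 19 of 363 were higher (5.23%) and 52 lower (14.3%), and against spleen 14 of 906 were higher (1.55%) and 155 lower (17.1%). Liver had 9 of 1144 genes higher (0.787%) and 94 lower (8.22%) than bone marrow, and spleen 29 of 1643 higher (1.77%) and 26 lower (1.58%). These counts follow the size of the sums, because a gene that is higher at E19 needs 501 CPM to hold 30 UMIs and a gene that is higher in bone marrow needs far less. With the same CPM floor for both libraries of a pair, an alternative chosen after seeing the data, the counts were 13 higher and 17 lower of 259 for E19 against bone marrow, 19 and 23 of 262 against liver, 14 and 12 of 250 against spleen, and 9 and 5 of 419 for liver against bone marrow. The excess of lower genes was thus not seen under an equal floor. With TMM scaling the spleen split against bone marrow was 38 higher and 15 lower, and the median difference of E19 against bone marrow moved from -0.45 to -0.56.

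Of 7 genes higher at E19 than in all 3 P2 libraries, Hlf was at 501 CPM against 76.0, 186 and 226 CPM in bone marrow, liver and spleen. Flt3 cells without Dntt also had more Hlf at E19, at 740 against 261, 104 and 261 CPM, so the higher level was shared with the other Flt3 cells of that library. Ctla2a was at 918 against 360, 116 and 420 CPM, and Slc38a2, Gimap6, Foxn3 and Vav3 were also among the 7. The 8 genes named of the 20 that were lower at E19 include Hist1h1e, Hist1h4d, Hist1h1b and Hist1h2ap, which encode histones. Hist1h1b was at 150 CPM at E19 (9 UMIs) against 1289, 2127 and 1261 CPM. The S phase list gave 1703 CPM at E19 and 3890, 4091 and 3859 CPM at P2, while the G2/M list gave 6112 CPM against 6244, 6136 and 6255 CPM. In Flt3 cells without Dntt the S phase list gave 2835 CPM at E19 and 3774, 2335 and 3605 CPM at P2. Plac8, a gene of myeloid and lymphoid progenitors, was at 167 CPM against 1141, 1801 and 719 CPM, and Xist at 0 against 332, 477 and 551 CPM. Psmb8, an immunoproteasome subunit, and Parp8 were also lower. The count of 20 lower genes was made without the equal CPM floor, which is 501 CPM for E19 against each P2 library. In bone marrow Hist1h4d (340 CPM), Parp8 (364), Xist (332) and Psmb8 (376) lie below that floor, as does Hist1h1e in spleen (402). They would not enter those comparisons under it, while Hist1h1b, Hist1h2ap and Plac8 would enter all 3. No number of genes tested goes with the counts of 7 and 20. Age, batch, the mice and their sex, the tissue, which the labels of E19 leave unclear, and the Cell Ranger version may all differ between E19 and P2 and cannot be told apart.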

How the data were processed

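The authors deposited raw UMI counts per gene and barcode for 32285 genes, in 1 matrix per library. Cell Ranger made the counts, in versions 7.0.0 (P2 tissues), 7.1.0 (E19) and 8.0.1 (pup tubes) per the file headers, and the submitters' processing notes name mm10. No further filter by the authors is given in the sources used here. Gene positions are from the GENCODE vM21 annotation of mm10. The hashtag samples of the tubes were not used here.

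Groups follow the labels, with 1 library per group. Cells and gene lists were chosen with earlier results of these data known. Comparison cells were matched 1 to 1 on total UMIs within a library, without replacement. Counts summed per library and cell set were tested in edgeR 4.0.16 (R 4.3.3; TMM, filterByExpr, glmQLFit, glmQLFTest, library as a block because both sums come from the same library, Benjamini-Hochberg threshold 0.05 over all genes tested), and the 7 genes of the rule were left out of the tests. Fold changes are log2 with standard errors. The 3 P2 libraries share 1 pool of mice, so p-values measure only how the difference between cell sets varies over libraries, not over mice. DESeq2 1.42.0, no filter, no block, no matching, removal of Scrublet-marked barcodes (scanpy 1.11.5, the top 0.8% per 1000 barcodes) and leaving out each library were tried. Shares between cell sets were compared after thinning to 5000 UMIs, which leaves out shallower cells. Intervals are from scipy 1.17.1 and figures from matplotlib 3.10.9 under Python 3.11.15.

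Genes were named by size of change: the 12 higher and 12 lower (8 and 8 in the second comparison and between libraries) past the threshold, in the same direction in every library and at least 20 CPM in the higher set, with unnamed models skipped, plus members of the gene lists. 2610307P16Rik, Lmo2, H2-Eb1 and the single cell with Mcpt8 and Prss34 were singled out after their values were seen, as were Hbb-bt and Cst3, and the other settings of the first comparison use the same rule. On simulated counts with 100 genes changed at each size, the first comparison recovered 62 at a log2 change of 1 and 85 at 2, with 4 false calls among 2956 genes. The second recovered 27 and 82 with 5 false calls among 4420 genes. The simulated counts had a fixed spread and no difference between libraries, and only well-counted genes were changed. Recovery in the real sums, and in genes with few UMIs, may be lower. Splitting the cells by Il7r could not be fitted, since no library has 20 cells in both sets. Some genes are not reported here.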

Additional observations from a re-analysis of the deposited data

Results flagged for a closer look

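Cells that met the same rule were also found in the 2 tubes of labelled P2 pups, which no comparison of the report used. They made up 0.514% of the cells of tube 1 (14 of 2722) and 0.283% of tube 2 (7 of 2473), and were singled out as a signal in libraries outside the main measurement. Median UMIs of these cells were 29343 and 25803, well above those of the other libraries. After thinning every cell to 5000 UMIs, 3 of 2653 (0.113%) and 3 of 2294 (0.131%) met the rule, and 0.189% and 0.303% of Flt3 cells with the 5 excluded genes at 0 had Dntt. The erythroid background in the tubes was 0 of 3 and 0 of 114 cells, which allows up to 3.18% in tube 2, so the Dntt share there lies within the background limit. After thinning, Satb1 was seen in 9 of 14 and 4 of 7 of the cells, and Il7r in 0 of 14 and 0 of 7. With fewer than 20 cells per tube, the comparison with Flt3 cells without Dntt was not run.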

How the results depend on the processing

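Requiring at least 2 UMIs of both Flt3 and Dntt lowered the shares to 0.0763% in bone marrow, 0.0355% in liver, 0.0885% in spleen and 0% at E19. Against Flt3 cells without Dntt, the 6 calls of 3016 genes tested became 0 of 14248 with DESeq2. Without the filter on low counts they became 91 of 14248 (37 higher, 54 lower). Without the replicate block there was 1 of 3016, and without matching 171 of 11058 (48 higher, 123 lower). With at least 2 Dntt UMIs there were 0 of 632. The number of genes tested thus differs between these settings. Leaving out 1 library gave 0 to 29 calls, with 1635 to 4289 genes tested. Of the alternatives chosen after seeing the data, 10 matched cells gave 59 of 6340 and the same without E19 gave 111 of 7307. Bone marrow and spleen alone gave 46 of 4520. The interaction with E19 called 2 of 14248 genes without the filter. Against Dntt cells with a B cell gene, the 147 calls of 4459 genes became 39 (14 higher, 25 lower) with DESeq2, which gave 4317 adjusted p-values. Without matching they became 584 of 7889 (227 higher, 357 lower). The number of calls stayed within 1.5 times under the other settings. With an equal CPM floor for both libraries, genes past 2-fold numbered 30, 42 and 26 for E19 against bone marrow, liver and spleen and 14 for liver against bone marrow. Differences near 0 changed sign: Mpo was 0.20 with DESeq2, 0.0229 without the block, 0.0405 with Scrublet-marked cells removed, 0.33 with at least 2 Dntt UMIs and -0.34 to 0.46 when 1 library was left out, positive without bone marrow (0.46) and without spleen (0.17). In the second comparison Notch1 was -0.0014 with DESeq2 and -0.0296 with Scrublet-marked cells removed, and Satb1 was 0.14 without matching and 0.0232 with Scrublet-marked cells removed. The causes were not tested, beyond fewer genes entering under the equal floor. Over the genes named and the settings run, 143 values of the first comparison kept their sign and their side of the threshold, most of them uncalled, 68 passed it newly and 19 no longer passed, and in the second 103 kept both and 5 no longer passed. Leaving out a library in the second comparison leaves 1 library and no residual degrees of freedom, and the tubes and the Il7r split were not run. The set is small, its Dntt is mostly 1 UMI per cell, and counting error of single UMIs limits every value given for liver and E19.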
